A study of Sus scrofa with 15 samples.

Results

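The lipid droplet and fatty acid oxidation genes are 51 genes that were chosen by symbol from a table of 22516 pig genes, and 50 of them had a row there. The fatty acid translocase CD36 could not be matched to a row and was not analysed here. The set runs from the proteins that coat stored fat, through the enzymes that release, bind, activate and transport fatty acids, to the mitochondrial and peroxisomal oxidation steps and fatty acid synthesis. Pig oocytes were compared at 3 conditions. GV (germinal vesicle) oocytes were immature and were frozen without culture. MII and ‘damaged’ oocytes had been cultured inside their cumulus for 44 h, and they were told apart by the first polar body, seen in MII and not in ‘damaged’ oocytes. All oocytes came from follicles of slaughterhouse sow ovaries, and cumulus cells were stripped with hyaluronidase before 15 oocytes were pooled per library. Each condition had 5 libraries.

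A pig oocyte is rich in triacylglycerol, which it keeps in lipid droplets, organelles wrapped in perilipin proteins. Lipases free fatty acids from the droplet, acyl-CoA synthetases activate them, the carnitine shuttle brings them into mitochondria, and each turn of beta-oxidation shortens the chain and passes electrons to the respiratory chain. A fully grown oocyte transcribes little, so its mRNA is a store that is used, re-adenylated or degraded during maturation, and a level measured on polyadenylated RNA is a level of that store, not of enzyme or of oxidation.

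GV replicate 3, the shallowest library at 6.40 M estimated counts, was left out of the fit. The 14 libraries used held 11.96 to 23.6 M counts, and the levels and counts per library that follow are of these 14. In the gene table, 7 of 15 columns carried the total of a library with a different name, so gene counts were rebuilt from the transcript files and their labels were followed. Of the markers chosen for the oocyte, 11 of 11 with an identifier passed the filter on low counts. Their summed level was 9991 to 12008 CPM in GV and 6415 to 8947 CPM in MII and ‘damaged’ libraries. At an FDR under 0.01, 6 fell after culture and 1 rose, beside 37.0% and 30.0% of all genes. ZP3 fell most, from a mean of 1829 to 95.6 CPM, and OOSP2 rose from 302 to 1432 CPM. Markers of cumulus and granulosa cells summed to 11.8 to 14.3 CPM in GV and 17.9 to 28.3 CPM after culture. FST was the main contributor and rose from 7.23 ± 1.03 CPM (SD, n = 4) to 21.1 ± 3.08 CPM (SD, n = 10). Of the 4 tested, FST was the 1 that rose and AREG the 1 that fell, from a mean of 1.16 to 0.440 CPM. CD44 and STAR did not pass the test, with log2 fold changes of -0.55 and -0.31. Of 13 with an identifier, 7, among them INHA, CYP11A1 and HAS2, stayed under 10 counts in every library. Markers of theca, endothelium and blood summed to 4.23 to 6.04 CPM and 8.45 to 25.3 CPM, mainly PECAM1, which rose. Their part in the results was not tested. In such pools, fewer cells with a transcript and less transcript per cell cannot be told apart.

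After maturation the lipid genes moved in both directions, with several enzymes that work together going opposite ways. Levels are CPM, counts scaled to the same total and by TMM factors, which set the bulk of genes level between libraries. MIX denotes the mean of MII and ‘damaged’, ‘rose’ and ‘fell’ denote an FDR under 0.01 in a limma-voom fit of all 13230 genes that passed the filter, and a DEG has an absolute log2 fold change over 2 as well. Of the 41 lipid genes tested, 14 rose and 19 fell between GV and MIX, beside 30.0% of all genes that rose and 37.0% that fell. These are 34.1% and 46.3% of the lipid genes. ETFA was the 1 DEG that was higher in MIX, beside 4.27% of all genes, and 9 lipid genes were lower DEGs, beside 16.8%. The lower DEGs were MCAT, ETFB, HADHA, PLIN5, ELOVL1, ECHS1, ECI1, DGAT1 and PLIN3. These shares lay near the background, and the lipid genes were not tested against it. ACADM at 1.99 stood just under the DEG threshold, and PLIN3 at -2.03 and DGAT1 at -2.06 just past it. Libraries of GV and MIX did not overlap for 13 lipid genes that were higher, beside 24.3% of all genes, and 14 that were lower, beside 29.4%. The median log2 fold change was -0.61 over the 41 lipid genes and -0.16 over all genes.

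**Figure D1:**
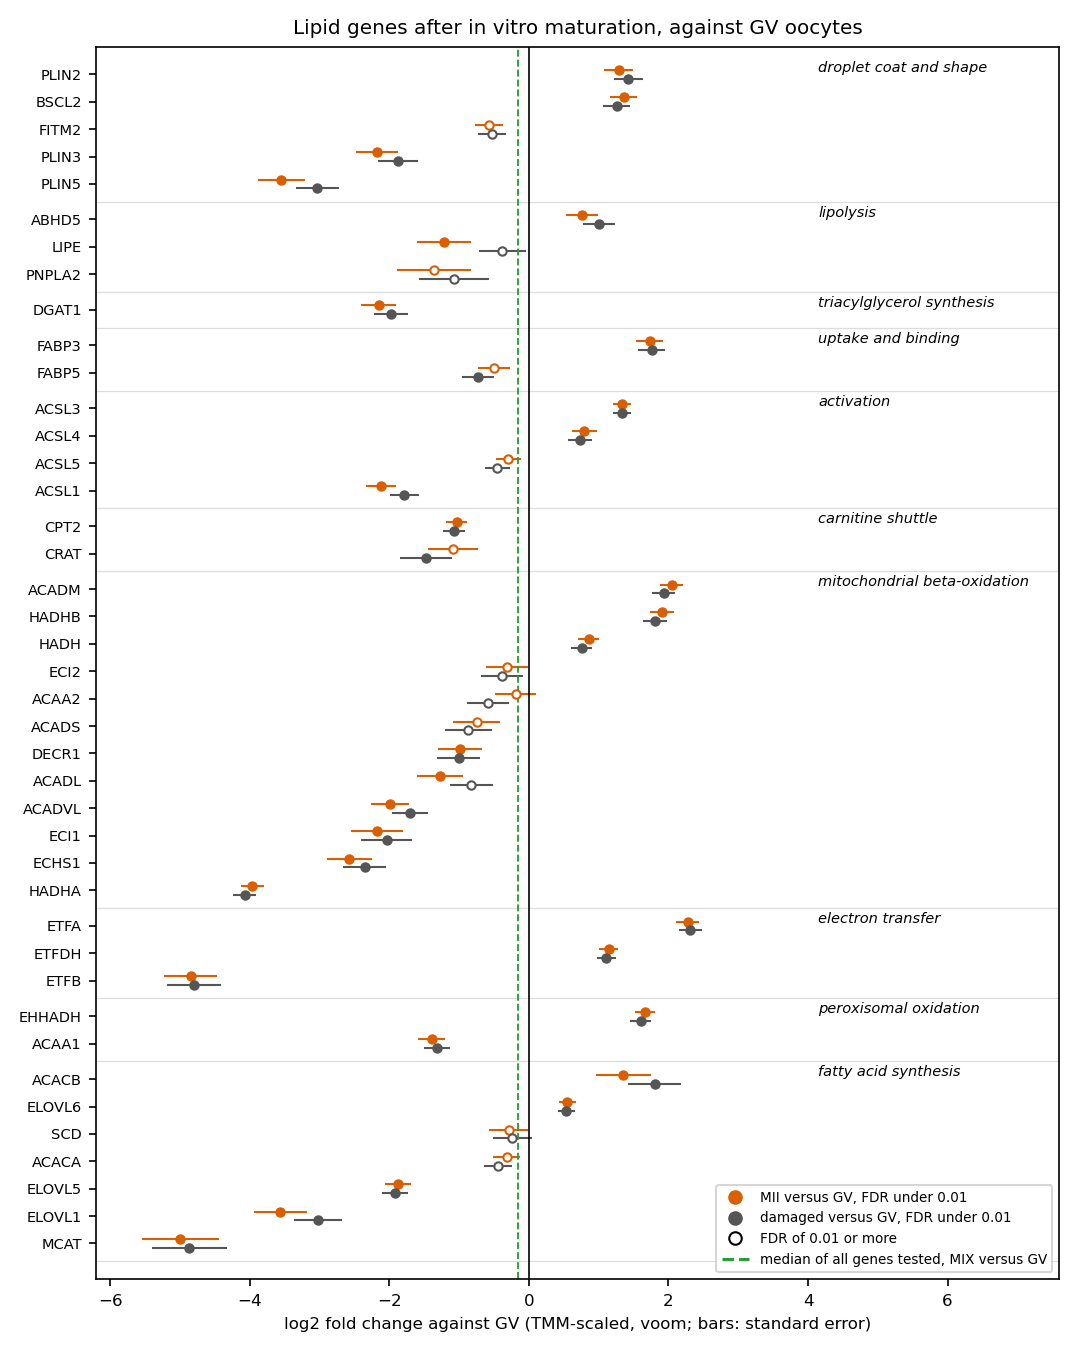
Log2 fold change of the 41 lipid genes tested, for MII (orange) and ‘damaged’ (grey) oocytes against GV, grouped by role. Points are the fitted change, bars 1 standard error, filled points have an FDR under 0.01, and the dashed line is the median of all genes, -0.16. Mitochondrial beta-oxidation spans from ACADM at 1.99 to HADHA at -4.02 in MIX.

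The direction of small rises depended on the scaling. With library sizes alone, the median of all genes moved from -0.16 to -1.06, and 6 lipid genes rose and 28 fell, against 14 and 19 with TMM factors. Of all genes, 11.9% rose and 60.1% fell in that scaling. The DEGs among the lipid genes were then 0 higher, beside 0.348% of all genes, and 15 lower, beside 28.6%. ABHD5, ACSL4 and HADH, which rose with TMM factors, had log2 fold changes of -0.028, -0.13 and -0.084 and no call. The rise of ELOVL6 turned into a called fall, at -0.35 with an FDR of 0.0021. PLIN2, BSCL2, ETFDH and ACACB kept a positive sign and lost the call. ETFA, ACADM, HADHB, FABP3, EHHADH and ACSL3 remained higher in both scalings.

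Among the coat proteins, the perilipin make-up narrowed to PLIN2. PLIN2, the perilipin that coats droplets in most cells, rose, and so did BSCL2, which encodes seipin, a protein of the site where droplets form. PLIN5, which ties droplets to mitochondria in oxidative tissues, PLIN3, a perilipin that moves between cytosol and droplet, and FITM2, which partitions fat into droplets, fell. All 5 members tested thus passed the test, 2 rising and 3 falling, beside 30.0% of all genes that rose and 37.0% that fell. The call of FITM2 (-0.55 ± 0.17 (SE), FDR of 0.00806) stood close to the threshold and was lost in 14 of 22 alternative fits.

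PLIN2 (ENSSSCG00000035863, chromosome 1, 203683867 to 203709277 of Sscrofa11.1 in RefSeq) stood at 434, 234, 295 and 202 CPM in GV replicates 1, 2, 4 and 5, an order kept in what follows. It stood at 505, 667, 764, 821 and 678 CPM in MII replicates 1 to 5 and at 775, 796, 1073, 665 and 536 CPM in ‘damaged’ replicates 1 to 5. The lowest cultured library, MII replicate 1, lay above the highest GV library, replicate 1. The log2 fold change in MIX was 1.36 ± 0.19 (SE), a 2.56-fold rise with an FDR of 1.79e-06.

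PLIN5 (ENSSSCG00000013513, chromosome 2, 74304613 to 74314314) went the other way, with 10.6, 13.7, 14.5 and 20.4 CPM in GV. MII libraries held 1.49, 0.808, 1.35, 0.607 and 2.75 CPM and ‘damaged’ libraries 1.49, 1.24, 1.47, 2.68 and 2.08 CPM. Even the highest of these lay well under the lowest GV library. Its log2 fold change was -3.29 ± 0.26 (SE), 9.80-fold lower, with an FDR of 5.94e-10.

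On the TPM scale, which corrects for length and so permits a comparison between genes, PLIN2 made up 96.1, 91.4, 92.6 and 86.8% of the summed TPM of PLIN2, PLIN3, PLIN4 and PLIN5 in the GV libraries, and 99.5% ± 0.21 (SD, n = 10) in the cultured ones. PLIN5 held 6.40% ± 3.24 (SD, n = 4) in GV and 0.284% ± 0.15 (SD, n = 10) after culture. The summed TPM of the family overlapped between the conditions, at 324 ± 47.4 in GV and 381 ± 84.5 in MIX. TPM carries no TMM factors, so these sums cannot be set against the rise of PLIN2 in CPM. On the TPM scale, PLIN2 itself stood at a mean of 299 in GV and 379 in MIX. These shares were not tested, and the families were chosen for display after values had been seen. PLIN4 and CIDEB, a droplet protein of liver, had at most 3.05 and 2.44 counts in any library and were not tested.

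**Figure D2:**
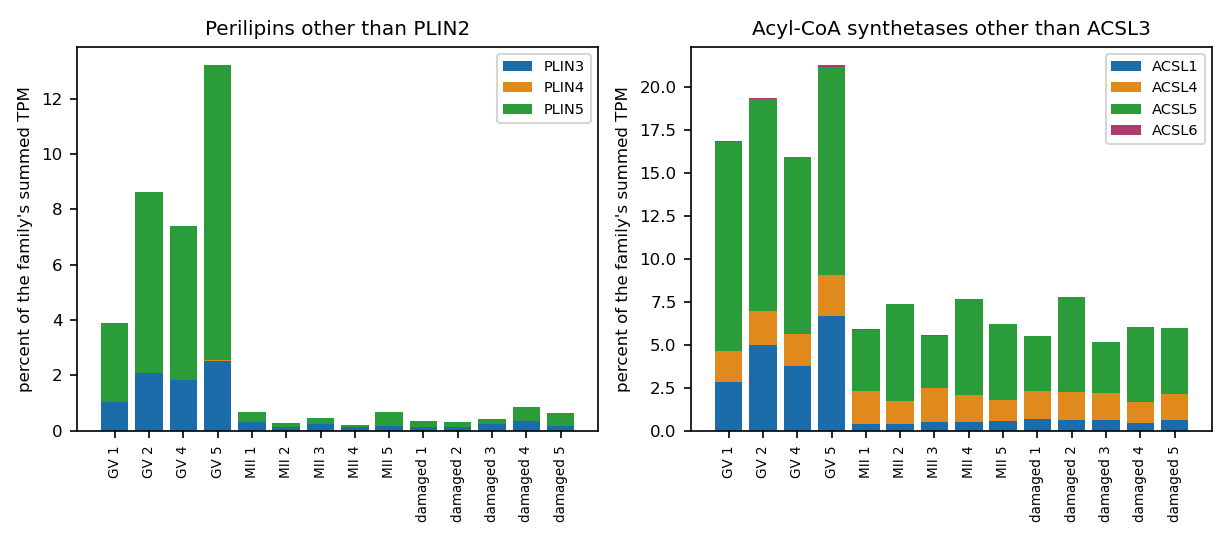
Share of the minor members in the summed TPM of the perilipins (left, PLIN2 makes up the rest) and of the long-chain acyl-CoA synthetases (right, ACSL3 makes up the rest), 1 bar per library. The minor perilipins take between 3.89 and 13.2% in GV libraries and under 1% in all 10 cultured libraries.

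Of the lipolysis genes, ABHD5 passed the test. ABHD5, also called CGI-58, is the co-activator of adipose triglyceride lipase, which PNPLA2 encodes, and LIPE encodes hormone-sensitive lipase. ABHD5 (ENSSSCG00000011297, chromosome 13, 27006331 to 27053760) held 11.9, 5.71, 8.89 and 5.09 CPM in GV. MII libraries held 14.3, 10.5, 12.2, 10.5 and 16.3 CPM and ‘damaged’ libraries 17.7, 14.6, 13.98, 15.3 and 13.3 CPM. GV replicate 1 lay inside the range of the MII libraries and the others below it. The log2 fold change was 0.88 ± 0.20 (SE) with an FDR of 0.000525, but it was -0.028 with library sizes alone and 0.36 (FDR of 0.0823) with summed counts that were not scaled by transcript length. PNPLA2 had a log2 fold change of -1.22 ± 0.43 (SE) and an FDR of 0.0152, and without GV replicate 1 these were -1.57 and 0.00205, whereas without GV replicate 5 they were -0.83 and 0.0964. LIPE had -0.80 ± 0.31 (SE) and 0.0238, and the FDR was 0.00862 without GV replicate 2 and 0.00903 without ‘damaged’ replicate 5. Without GV replicates 4 and 5 in turn, the FDR of LIPE was 0.0595 and 0.113. Both lipases were scarce, at 4.44 ± 3.30 and 1.01 ± 0.460 TPM in GV (SD, n = 4). MGLL, the monoacylglycerol lipase, had at most 13.97 counts and was not tested.

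DGAT1 and DGAT2 add the last fatty acid to triacylglycerol. DGAT1 (ENSSSCG00000005918, chromosome 4, 452890 to 463665) held 5.84, 7.97, 6.75 and 9.75 CPM in GV, 2.94, 1.41, 1.12, 1.84 and 1.52 CPM in MII and 1.64, 1.70, 1.66, 2.09 and 2.37 CPM in ‘damaged’ libraries. No cultured library reached the GV range. It fell by 4.18-fold, with a log2 fold change of -2.06 ± 0.20 (SE) and an FDR of 1.54e-08. DGAT2 had at most 15.1 counts in any library and was not tested.

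The fatty acid binding proteins diverged. FABP3 (ENSSSCG00000036883, chromosome 6, 87943003 to 87950708), the heart-type carrier of fatty acids in the cytosol, held 147, 115, 82.2 and 62.1 CPM in GV. MII libraries held 311, 311, 312, 318 and 348 CPM and ‘damaged’ libraries 402, 336, 369.7, 275 and 265 CPM. The GV libraries spread more than 2-fold among themselves and still all lay below every cultured library. FABP3 rose by 3.35-fold, with a log2 fold change of 1.75 ± 0.17 (SE) and an FDR of 1.58e-08. FABP5 (ENSSSCG00000006153, chromosome 4, 55277831 to 55282585), the epidermal type, held 9.32, 7.22, 11.12 and 9.20 CPM in GV, 5.78, 8.70, 3.73, 6.21 and 9.17 CPM in MII and 4.07, 5.03, 7.11, 5.54 and 5.97 CPM in ‘damaged’ libraries. The groups overlapped. Its log2 fold change was -0.61 ± 0.20 (SE), and the FDR of 0.00965 rose above 0.01 in 16 of 22 alternative fits, for example to 0.0482 without GV replicate 4.

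Among the long-chain acyl-CoA synthetases ACSL3 was by far the most abundant, and its share grew after culture. ACSL3, the synthetase of the endoplasmic reticulum and nascent droplets, and ACSL4, which prefers arachidonic acid, rose, although ACSL4 was at -0.13 with library sizes alone. ACSL1, the main synthetase of oxidative and fat tissue, fell, and ACSL5 did not pass the test at -0.37 ± 0.16 (SE). ACSL3 (ENSSSCG00000016223, chromosome 15, 124741986 to 124816955) held 640.4, 519, 604 and 486 CPM in GV. MII libraries held 1433, 1319, 1618, 1257 and 1433 CPM and ‘damaged’ libraries 1339, 1225, 1353, 1455 and 1747 CPM. The groups were far apart, and the log2 fold change was 1.34 ± 0.11 (SE), a 2.52-fold rise, with an FDR of 2.12e-09. With summed counts it was 0.53 (FDR of 4.12e-05), less by over 1.5 times. The scaled counts, unlike the summed ones, correct for the length of the transcripts in use, which changed for ACSL3 as described further on.

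ACSL1 (ENSSSCG00000015784, chromosome 15, 45866858 to 45936327) held 22.7, 33.5, 28.0 and 43.0 CPM in GV, 5.93, 5.36, 8.83, 6.77 and 9.27 CPM in MII and 9.94, 8.14, 8.84, 6.76 and 12.2 CPM in ‘damaged’ libraries. All GV libraries lay above all cultured ones. ACSL1 fell by 3.87-fold, with a log2 fold change of -1.95 ± 0.18 (SE) and an FDR of 7.41e-09. In TPM, ACSL3 made up 81.6% ± 2.43 (SD, n = 4) of the summed synthetases in GV and 93.7% ± 0.95 (SD, n = 10) in MIX, ACSL5 11.8% ± 0.96 and 4.22% ± 1.06, and ACSL1 4.56% ± 1.67 and 0.520% ± 0.11. The ratio of ACSL3 to ACSL1 lay between 11.8 and 29.4 in GV and between 140 and 256 in MIX libraries. ACSL6, a synthetase of brain, had at most 23.4 counts and was not tested.

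Both carnitine shuttle genes tested fell, beside 37.0% of all genes, and neither CPT1 gene reached the filter. CPT1A and CPT1B encode the liver and muscle forms of the outer-membrane enzyme that makes acylcarnitine, the step that controls entry into mitochondria, and CPT2 encodes the inner enzyme that turns it back into acyl-CoA. CPT1A had at most 9.22 counts in a GV library and 0 in each of the 5 MII libraries. In ‘damaged’ libraries it had 0 to 5.40 counts. ‘Damaged’ replicate 5, at 0.364 CPM, lay inside the GV range of 0.267 to 0.474 CPM. A count of 0 allows up to 3 counts per library, which is 0.127 to 0.233 CPM at the depth of the MII libraries and covers counting error only. CPT1B had at most 4.95 counts. CPT2 (ENSSSCG00000003851, chromosome 6, 159038129 to 159061327) held 29.1, 35.5, 34.9 and 30.1 CPM in GV, 18.7, 16.2, 17.9, 15.3 and 12.02 CPM in MII and 15.6, 14.9, 15.5, 13.1 and 17.9 CPM in ‘damaged’ libraries. The groups did not overlap, and CPT2 fell by 2.08-fold (-1.05 ± 0.13 (SE) on the log2 scale, FDR of 4.6e-07). CRAT (ENSSSCG00000005671, chromosome 1, 269387430 to 269401334), which buffers acetyl-CoA with carnitine, held 1.78, 1.72, 1.85 and 2.74 CPM in GV, 0.725, 1.36, 2.16, 0.516 and 0.697 CPM in MII and 0.538, 0.605, 0.4295, 1.34 and 0.830 CPM in ‘damaged’ libraries. MII replicate 3 lay inside the GV range and the other cultured libraries below it. CRAT fell by 2.43-fold (-1.28 ± 0.30 (SE), FDR of 0.000785).

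**Figure D3:**
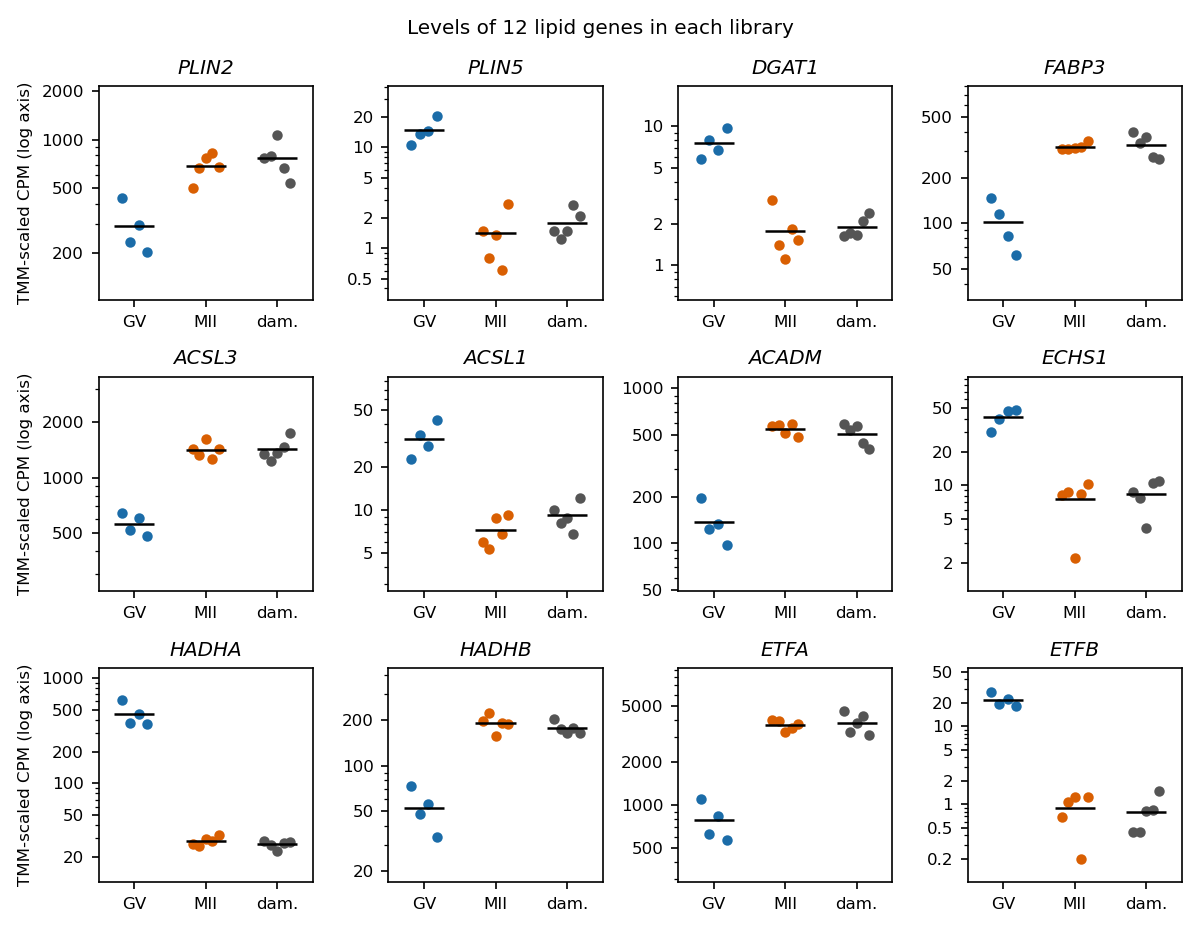
TMM-scaled CPM of 12 lipid genes in each library on log axes, with 4 GV, 5 MII and 5 ‘damaged’ libraries as points and the group mean as a line. In each panel the GV points lie wholly above or wholly below the cultured ones, and MII and ‘damaged’ points overlap. The 12 genes were picked for display and are all without overlap, as 13 higher and 14 lower of the 41 tested were. ABHD5, FABP5 and CRAT, which overlapped between GV and cultured libraries, are not shown.

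All 12 genes of mitochondrial beta-oxidation passed the filter, of which 3 rose, 6 fell and 3 did not pass the test. The shares of all genes that rose and fell were 30.0% and 37.0%, and the group was not tested against them. ACADM, the medium-chain acyl-CoA dehydrogenase, HADHB and HADH rose, HADH with the exception of library sizes alone, where it was at -0.084. HADHA, ECHS1 (the short-chain enoyl-CoA hydratase), ECI1 (an enoyl-CoA isomerase for unsaturated chains), ACADVL and ACADL (the very long- and long-chain dehydrogenases) and DECR1 (the dienoyl-CoA reductase for polyunsaturated chains) fell. ACADS, ACAA2 and ECI2 had log2 fold changes of -0.81 ± 0.29 (SE), -0.39 ± 0.25 (SE) and -0.35 ± 0.25 (SE), with FDRs of 0.0159, 0.172 and 0.216. The first dehydrogenation step thus held the largest rise of the group, ACADM, and 2 of its falls, ACADVL and ACADL.

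ACADM (ENSSSCG00000003776, chromosome 6, 137541481 to 137575544) held 196, 124, 132 and 97.6 CPM in GV. MII libraries held 572, 579.8, 518, 593 and 488 CPM and ‘damaged’ libraries 589, 543, 574, 443 and 409 CPM. The highest GV library, replicate 1, stayed below the lowest cultured one. ACADM rose by 3.97-fold, with a log2 fold change of 1.99 ± 0.15 (SE) and an FDR of 3.18e-10.

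HADHA and HADHB encode the alpha and beta subunits of the mitochondrial trifunctional protein, which carries out the later steps of each turn for long chains as 1 complex. Their genes are neighbours, 221 bases apart in RefSeq: HADHB lies at chromosome 3, 112712894 to 112753121, and HADHA at chromosome 3, 112753343 to 112797627. HADHA (ENSSSCG00000008571) held 621, 371, 455 and 363 CPM in GV, but 26.3, 25.6, 29.5, 28.1 and 32.2 CPM in MII and 28.0, 26.0, 22.8, 26.9 and 27.5 CPM in ‘damaged’ libraries. It fell by 16.2-fold, with a log2 fold change of -4.02 ± 0.14 (SE) and an FDR of 1.24e-14. HADHB (ENSSSCG00000008569), added here as the partner, held 73.5, 48.0, 55.5 and 33.8 CPM in GV, 197, 221, 157, 193 and 189 CPM in MII and 203, 175, 165, 179 and 164 CPM in ‘damaged’ libraries. It rose by 3.62-fold (1.86 ± 0.15 (SE) on the log2 scale, FDR of 1.45e-09). Neither gene overlapped between GV and cultured libraries. Per length, the HADHA transcript outnumbered HADHB by 4.28 to 5.94 times in the GV libraries, whereas the ratio was 0.0638 to 0.104 in MIX libraries. This ratio is taken within each library and is free of the scaling between libraries.

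The calls of DECR1 and ACADL were each lost without GV replicate 1 or without GV replicate 2. GV replicate 1 held 144 CPM of DECR1, against 32.7 to 66.3 CPM in the other GV libraries and 21.8 to 38.8 CPM in MIX. Its log2 fold change of -0.996 ± 0.27 (SE) (FDR of 0.00259) became -0.56 (FDR of 0.0182) without GV replicate 1 and -0.95 (FDR of 0.0101) without GV replicate 2. The log2 fold change of ACADL, -1.05 ± 0.27 (SE) with an FDR of 0.00163, became -0.83 (FDR of 0.0112) and -0.90 (FDR of 0.0105) without the same libraries. ECHS1 held 30.0 to 47.3 CPM in GV and 2.21 to 10.9 CPM in MIX, with no overlap, and fell by 5.51-fold (-2.46 ± 0.26 (SE), FDR of 5.74e-08).

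The electron transfer genes split in the same manner. The flavoprotein ETF, a dimer of the ETFA and ETFB products, takes electrons from the acyl-CoA dehydrogenases, and ETFDH hands them to ubiquinone. ETFA (ENSSSCG00000001862, chromosome 7, 56450508 to 56540275) was the most abundant lipid gene, with 1101, 622, 844 and 572 CPM in GV. It reached 3951, 3883, 3291, 3506 and 3739 CPM in MII and 4616, 3295, 3797, 4224 and 3126 CPM in ‘damaged’ libraries. All cultured libraries exceeded the highest GV library more than 2-fold. ETFA rose by 4.91-fold (2.29 ± 0.15 (SE) on the log2 scale, FDR of 3.81e-11), and with library sizes alone by 1.40 on that scale.

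ETFB (ENSSSCG00000003229, chromosome 6, 58501892 to 58517580) held 27.8, 19.2, 22.2 and 18.2 CPM in GV and 0.695, 1.07, 1.24, 0.2000 and 1.23 CPM in MII libraries. ‘Damaged’ libraries held 0.437, 0.436, 0.816, 0.846 and 1.47 CPM. The cultured libraries had 3.77 to 21.9 counts of it each, against 373 to 544 in GV. ETFB fell by 28.3-fold, with a log2 fold change of -4.83 ± 0.30 (SE) and an FDR of 1.85e-11. ETFDH, with 17.2 to 21.7 CPM in GV and 35.4 to 47.9 CPM in MIX, rose with TMM factors (1.13 ± 0.13 (SE), FDR of 9.35e-08), while library sizes alone gave 0.23 (FDR of 0.0815). The ratio of ETFA to ETFB in TPM was 21.2 to 26.6 in the GV libraries and 1426 to 11782 in MIX libraries.

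**Figure D4:**
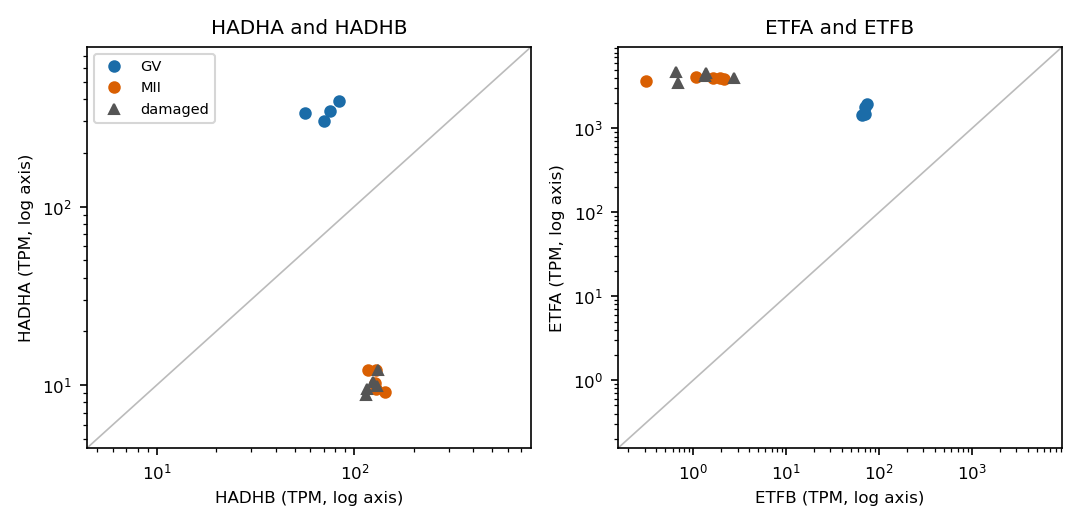
TPM of HADHA against HADHB (left) and of ETFA against ETFB (right) in each library, on log axes, with the line of equal TPM. GV libraries (circles, blue) hold more HADHA than HADHB and cultured libraries less, and ETFB drops in the cultured libraries to under 3 TPM while ETFA stays over 1000 TPM in all.

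The position of ETFA among all genes moved from rank 67 to rank 27 of 13230 by mean TPM. It made up 36.0 to 42.6% of the summed TPM of the 50 lipid genes in the GV libraries and 60.7 to 68.3% in MIX libraries. That sum was 0.399 to 0.465% of all TPM in GV and 0.562 to 0.685% in MIX. In both conditions 7 lipid genes ranked in the top 1000, namely ETFA, PLIN2, FABP3, ACSL3, ACADM and ELOVL6 in both, joined by HADHA (rank 458) in GV and by HADHB (rank 946) in MIX.

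In the peroxisome, EHHADH, the bifunctional hydratase and dehydrogenase, rose and ACAA1, the thiolase of the last step, fell. EHHADH (ENSSSCG00000040296, chromosome 13, 123104085 to 123162119) held 16.2, 18.0, 19.6 and 21.1 CPM in GV, 65.3, 62.9, 51.3, 66.3 and 52.9 CPM in MII and 49.8, 64.1, 52.8, 53.5 and 65.2 CPM in ‘damaged’ libraries. The ranges stood far apart, with a 3.11-fold rise (1.64 ± 0.13 (SE) on the log2 scale, FDR of 8.65e-10). ACAA1 (ENSSSCG00000011250, chromosome 13, 22964844 to 23020138) held 11.08, 9.50, 8.80 and 11.7 CPM in GV, 4.65, 3.31, 3.27, 4.03 and 4.24 CPM in MII and 3.76, 5.86, 3.66, 3.76 and 3.88 CPM in ‘damaged’ libraries. It fell by 2.56-fold (-1.35 ± 0.16 (SE), FDR of 2e-07), again without overlap. ACOX3, a peroxisomal oxidase for branched chains, had at most 18.1 counts and was not tested.

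Fatty acid synthesis was represented mainly by elongation. FASN, the cytosolic synthase, had at most 7.09 counts in any of the 14 libraries used and was not tested. In GV replicate 3, which was left out, it stood at 0.348 TPM, against 0.0487 to 0.112 TPM in the other GV libraries. ELOVL6, which lengthens palmitate to stearate, was the highest gene of the group. ELOVL6 and ACACB, the acetyl-CoA carboxylase whose product inhibits CPT1, rose with TMM factors, although with library sizes alone ELOVL6 was called lower at -0.35 and ACACB lost its call. MCAT, the malonyl transferase of mitochondrial synthesis, ELOVL1 and ELOVL5, elongases of saturated and of polyunsaturated chains, fell. ACACA, the carboxylase of the cytosol, and SCD, the stearoyl-CoA desaturase, had log2 fold changes of -0.38 ± 0.17 (SE) and -0.26 ± 0.24 (SE) (FDRs of 0.0526 and 0.333), and SCD was at 0.014 without GV replicate 2.

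ELOVL6 (ENSSSCG00000036236, chromosome 8, 112038670 to 112190079) held 746, 649, 701 and 531 CPM in GV, 887, 903, 998, 953 and 1030.3 CPM in MII and 826, 919.6, 1109, 952 and 932 CPM in ‘damaged’ libraries. The groups did not overlap, and the log2 fold change was 0.54 ± 0.11 (SE) (FDR of 0.000151). On the TPM scale, which carries no TMM factors, its mean went the other way. It was 464 ± 25.8 in GV (SD, n = 4) and 335 ± 42.5 in MIX (SD, n = 10). ELOVL1 held between 3.32 and 6.67 CPM in GV and between 0.283 and 1.09 CPM in MIX, a fall of -3.29 ± 0.28 (SE) on the log2 scale (FDR of 2.54e-09). ELOVL5 held between 12.5 and 20.8 CPM in GV and between 3.596 and 5.12 CPM in MIX (-1.90 ± 0.15 (SE), FDR of 9.81e-10).

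MCAT (ENSSSCG00000000031, chromosome 5, 5742190 to 5750193) held 3.14, 5.38, 4.58 and 5.09 CPM in GV, 0, 0.239, 0.243, 0.167 and 0.0393 CPM in MII and 0, 0.0752, 0.191, 0.127 and 0.464 CPM in ‘damaged’ libraries. GV libraries had 61.5 to 123 counts of it and cultured libraries 0 to 6.88, with 0 in MII replicate 1 and ‘damaged’ replicate 1. The log2 fold change of -4.93 ± 0.41 (SE) (FDR of 1.32e-09) was the largest fall among the lipid genes. ACACB (ENSSSCG00000061436, chromosome 14, 41621574 to 41739916) held 0.459, 0.260, 0.240 and 0.253 CPM in GV, 0.468, 0.901, 0.686, 1.05 and 0.737 CPM in MII and 1.204, 0.827, 1.56, 0.697 and 1.19 CPM in ‘damaged’ libraries, from 5.03 to 8.98 counts in GV and 4.95 to 25.7 in MIX. It rose by 2.98-fold with TMM factors (1.58 ± 0.35 (SE), FDR of 0.000477), but GV replicate 1 at 0.459 CPM lay just under MII replicate 1 at 0.468 CPM.

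MII and ‘damaged’ oocytes were compared to ask whether the lipid genes differed with polar body extrusion. No lipid gene passed the test, which rests on the labels of the transcript files, since it was not tested whether names of MII and ‘damaged’ libraries were exchanged. By limma-voom, 0 of the 41 had an unadjusted p under 0.05, beside 1.47% of all genes. By edgeR 1 did, beside 2.06%, by DESeq2 1, beside 1.90%, and with the replicate number as a block 1, beside 2.67%. The 95% interval of the difference included 0 for all 41 genes and lay within a log2 difference of 1 in either direction for 29 of them. For the other 12, the interval reached beyond 1, so a difference larger than that was not excluded.

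LIPE came closest, with 0.292, 0.468, 0.554, 0.599 and 0.702 CPM in MII and 0.781, 0.624, 1.198, 0.658 and 1.94 CPM in ‘damaged’ libraries, and 1.16, 0.810, 1.40 and 1.83 CPM in GV. The 5 MII libraries lay low and ‘damaged’ replicates 3 and 5 high, with overlap. These levels rest on few counts, 3.08 to 11.3 per MII library and 8.22 to 28.7 per ‘damaged’ library. The log2 difference, MII minus ‘damaged’, was -0.84 ± 0.40 (SE), with a 95% interval of -1.67 to 0.003, an unadjusted p of 0.0507 and an FDR of 1. Against GV, LIPE passed the test in MII (-1.22 ± 0.39 (SE), FDR of 0.00851) and not in ‘damaged’ oocytes (-0.38 ± 0.34 (SE), FDR of 0.329), which does not show that they differ. ACSL1 and ACACB followed, at -0.34 ± 0.23 (SE) and -0.45 ± 0.32 (SE), with intervals of -0.82 to 0.15 and -1.12 to 0.22.

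The comparisons of MII and of ‘damaged’ oocytes with GV share their GV libraries. In MII, 14 lipid genes rose and 17 fell, beside 28.2% and 34.2% of all genes, and in ‘damaged’ oocytes 14 rose and 17 fell, beside 28.0% and 33.4%. DEGs were 2 higher and 10 lower in MII, beside 4.50% and 17.1% of all genes, and 1 higher and 7 lower in ‘damaged’ oocytes, beside 4.08% and 16.4%. For HADHA the log2 fold change was -3.96 ± 0.16 (SE) in MII and -4.08 ± 0.16 (SE) in ‘damaged’ oocytes, for ETFB -4.85 ± 0.38 (SE) and -4.80 ± 0.39 (SE), for ETFA 2.27 ± 0.17 (SE) and 2.32 ± 0.17 (SE), and for PLIN5 -3.55 ± 0.34 (SE) and -3.03 ± 0.31 (SE).

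Isoform use was examined in the 27 lipid genes with at least 2 transcripts past the filters. Of these, 12 had a transcript with an FDR under 0.01 in limma's diffSplice test and a share of the gene's TPM that differed by over 10 percentage points between GV and MIX, which is 44.4%, beside 48.6% of all genes tested. The 12 genes were ABHD5, ACSL1, ACSL3, ACSL5, DECR1, DGAT1, ELOVL5, ETFB, ETFDH, HADHA, HADHB and MCAT. Estimates for ETFB and MCAT rest on the few counts given above. DGAT1 also had few, 14.5 to 35.2 counts in the cultured libraries. Its called transcript, ENSSSCT00000083606, was at 0% in GV and spread from 0 to 54.9% in MIX libraries. An exact permutation test of the shares called 9 of 26, beside 39.7% of all genes tested. The transcripts described next were chosen after their values had been seen.

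In ACSL3, the transcript ENSSSCT00000061159 (5177 nt) held 69.1, 99.0, 81.5 and 98.7% of the gene's TPM in GV. It held 14.7, 5.51, 2.55, 10.6 and 0.119% in MII and 15.5, 13.1, 12.2, 2.09 and 4.64% in ‘damaged’ libraries, with an FDR of 6.69e-07. The shorter ENSSSCT00000101017 (2283 nt) took its place, with 11.7% ± 14.5 (SD, n = 4) in GV, 82.7% ± 3.72 (SD, n = 5) in MII and 81.3% ± 5.69 (SD, n = 5) in ‘damaged’ libraries. The ranges of GV and cultured libraries did not overlap for either.

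In HADHA, ENSSSCT00000091553 (3173 nt) held 92.9, 95.2, 92.9 and 96.5% in GV. MII libraries had 0.882, 32.1, 34.1, 61.4 and 1.56% and ‘damaged’ libraries 0, 43.2, 14.1, 17.3 and 27.2%, and ENSSSCT00000069687 (3209 nt) held the remainder (FDR of 6.5e-08 for both). The cultured libraries varied widely and still all lay below GV. In ACSL1, ENSSSCT00000017187 (3566 nt) held 50.2, 82.6, 60.7 and 75.7% in GV, 0, 1.13, 43.7, 0.0211 and 0% in MII and 0, 0, 10.1, 30.4 and 17.7% in ‘damaged’ libraries (FDR of 2.01e-06). In ELOVL5, ENSSSCT00000046025 (2649 nt) held 83.6, 94.96, 93.4 and 100% in GV, 0, 0, 32.4, 0 and 51.6% in MII and 0, 0.157, 100, 0.0662 and 3.98% in ‘damaged’ libraries (FDR of 0.000155). Here ‘damaged’ replicate 3 was as high as the highest GV library and the groups overlapped.

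**Figure D5:**
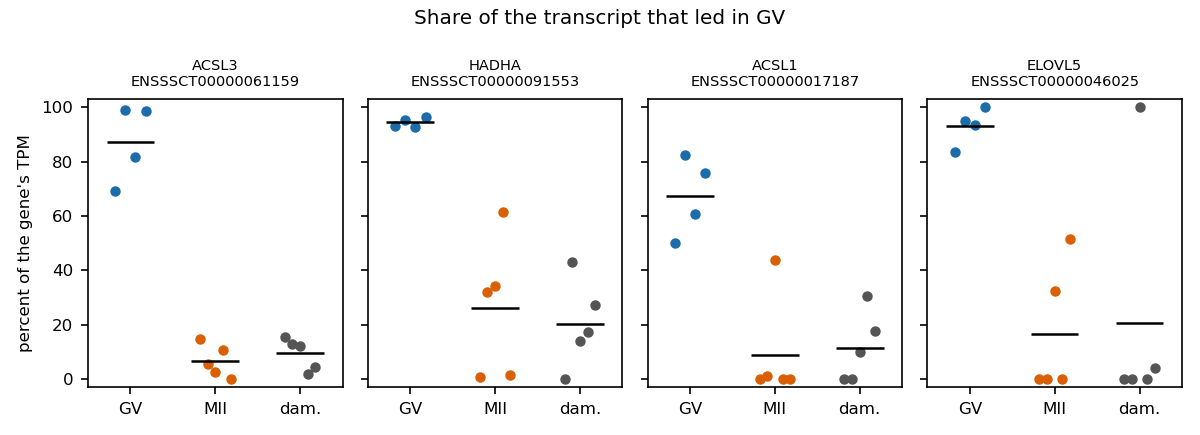
Share of the gene's TPM held by the transcript that led in GV, for ACSL3, HADHA, ACSL1 and ELOVL5, with 1 point per library and the group mean as a line. All GV points exceed all cultured points except in ELOVL5, where ‘damaged’ replicate 3 stands at 100%.

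Other genes of the same pathways were counted from lists made by symbol. Of 114 listed, 106 had an identifier and 80 were tested, of which 20 rose and 34 fell. These are 25.0% and 42.5%, beside 30.0% and 37.0% of all genes, and the smaller lists that follow are read against the same background. Other droplet genes had 5 rises and 3 falls of 9 tested, other triacylglycerol synthesis genes 1 and 8 of 12, and other transport and binding genes 2 and 4 of 10. The rest of the carnitine shuttle had 2 and 1 of 3, of mitochondrial beta-oxidation 2 and 6 of 11, of peroxisomal oxidation 1 and 1 of 7, and of fatty acid synthesis 6 and 5 of 16. Regulators of lipid metabolism had 1 rise and 6 falls of 12. The largest rises were GPAT3, an acyltransferase at the start of triacylglycerol synthesis (2.25 ± 0.29 on the log2 scale, SE, FDR of 6.19e-07), and HIBCH, a hydrolase of valine breakdown, from 284 ± 95.4 CPM (SD, n = 4) to 1196 ± 122 CPM (SD, n = 10). The largest falls were CIDEA, a protein of droplet fusion, and ACSF3, the malonyl-CoA synthetase of mitochondria. CIDEA fell from 27.8 ± 5.60 to 1.16 ± 0.32 CPM (-4.58 ± 0.19, FDR of 1.71e-13). ACSF3, which was scarce, fell from a mean of 1.9 to 0.10 CPM (-4.06 ± 0.40, FDR of 1.72e-08). GPAT3 was scarce too, with a mean of 0.60 CPM in GV and 2.9 CPM in MIX.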

How the data were processed

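Polyadenylated RNA of 15 pools of 15 pig oocytes was sequenced, 5 libraries each of GV, MII and ‘damaged’ oocytes. Priming on poly(A) means that transcript amount and poly(A) tail length cannot be told apart, and 75 bp reads assigned to annotated transcripts make isoform shares estimates. Near-identical gene copies, whose reads kallisto splits, were not checked for each gene. The authors made estimated counts and TPM per transcript with kallisto 0.43 on the Sscrofa11.1 cDNA, as given in the submitters' processing notes and the methods. The deposited gene table holds expected counts that the authors scaled by transcript length (lengthScaledTPM of tximport), unfiltered. The deposited transcript files also hold effective lengths, which entered the gene counts.

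In the gene table, 7 of 15 columns summed to the total of a differently labelled library and were set aside. Transcripts were matched to genes by sums over the other 8 columns, and the counts of every gene were then rebuilt for all libraries from the transcript files, whose labels were followed. The computed counts differed from the deposited ones by at most 0.000058%. Whether the labels and replicate numbers of the GV, MII or ‘damaged’ libraries are right was not tested. A symbol came from the gene name table, and positions from RefSeq.

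Counts were tested with limma 3.58.1 (voom, 3 groups, edgeR 4.0.16 filterByExpr and TMM factors) in R 4.3.3, and FDRs were adjusted by Benjamini-Hochberg over all genes. Limma was kept as the main test because the study used it on scaled counts. The study's methods name filterByExpr and voom but no scaling factors, and its comparison with GV joined MII and ‘damaged’ oocytes, which were kept as separate groups here and averaged in the contrast. EdgeR and DESeq2 1.42.0 ran on rounded counts as alternatives, beside library sizes alone, other filters, all 5 GV libraries, summed counts, a replicate block and each library left out. Isoforms were filtered at gene TPM over 1 and a share over 0.05. Tests were checked on simulated data. The study's methods describe 5 independent collections with 15 oocytes of each group and do not tie them to replicate numbers, and p-values measure the spread between these libraries only. Intervals cover counting error only where they concern counts. Tables and plots were made in Python 3.11.15 (pandas 2.3.3, scipy 1.17.1, matplotlib 3.10.9).

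The lipid genes and lists were chosen with earlier results of these data known. Values in every library are given for the largest rise, the largest fall and the highest TPM in each role group, and for the 3 smallest p-values between MII and ‘damaged’ oocytes. Of genes outside the set, at most 2 rises and 2 falls are named.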

Additional observations from a re-analysis of the deposited data

Results flagged for a closer look

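In the genes given in every library, the highest or lowest library stood apart from the rest of its group by Dixon's criterion in 4 of 60 groups of libraries, and chance flags about 1 in 20. FABP3 was at 348 CPM in MII replicate 5, above 311 to 318 CPM in the other MII libraries. CRAT was at 2.74 CPM in GV replicate 5, above 1.72 to 1.85 CPM in the other GV libraries. ACAA1 was at 5.86 CPM in ‘damaged’ replicate 2, above 3.66 to 3.88 CPM in the other ‘damaged’ libraries. ACACB was at 0.459 CPM in GV replicate 1, above 0.240 to 0.260 CPM in the other GV libraries, on few counts.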

How the results depend on the processing

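Library sizes alone changed most. Between GV and MIX they gave 6 lipid genes that rose, beside 11.9% of all genes. DEGs were then 0 higher and 15 lower, beside 0.348% and 28.6%. In both MII and ‘damaged’ oocytes against GV, 6 lipid genes rose and 28 fell. Of all 13230 genes, 1447 rose and 7612 fell in MII, and 1476 and 7404 in ‘damaged’ oocytes. DEGs among the lipid genes were 0 higher in each and 17 and 14 lower. Among all genes, 48 were higher and 3887 lower DEGs in MII, and 44 and 3672 in ‘damaged’ oocytes. ABHD5, ACSL4, HADH and ELOVL6 turned to -0.028, -0.13, -0.084 and -0.35, the last with a call (FDR of 0.0021). The higher DEGs among the lipid genes in MIX were 2 without a filter on low counts and 0 with a filter of 10 CPM (26 genes tested). They were 3 with all 5 GV libraries and 2 with summed counts. Among all genes they were 680 of 18944, 181 of 7465, 725 of 13113 and 554 of 13233, in the same order. The filter of 10 CPM left 0 higher and 6 lower DEGs among the lipid genes in MII, beside 196 and 1191 of 7465 genes. All 5 GV libraries gave 3 higher DEGs among them in ‘damaged’ oocytes, beside 691 of 13113 genes. MII and ‘damaged’ oocytes had 0 calls in every alternative.

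With each library left out in turn, 14 lipid genes rose and 17 to 20 fell in MIX. These were 12 to 14 and 15 to 18 in MII, and 14 and 15 to 18 in ‘damaged’ oocytes. Of all 13192 to 13541 genes tested, 3668 to 4019 rose and 4632 to 5019 fell in MIX. In MII 3461 to 3825 rose and 4227 to 4733 fell, and in ‘damaged’ oocytes 3421 to 3743 and 4184 to 4591. Higher and lower DEGs among the lipid genes numbered 1 to 3 and 7 to 11 in MIX, and 1 to 3 and 10 to 11 in MII. They numbered 1 to 3 and 6 to 9 in ‘damaged’ oocytes, and 0 between MII and ‘damaged’. Among all genes, they were 470 to 736 and 2193 to 2385 in MIX. The counts were 490 to 750 and 2203 to 2433 in MII, and 439 to 705 and 2112 to 2324 in ‘damaged’ oocytes. Without GV replicate 1 the higher DEGs in MIX among the lipid genes were 3. Without MII replicate 5, ‘damaged’ replicate 4 or ‘damaged’ replicate 5 they were 2. Lipid genes with an isoform call numbered 9 to 14, with 9 without GV replicate 5, beside 2324 to 2695 of all 5222 to 5425 genes tested. SCD, which had no call, ranged from -0.55 to 0.014, the latter without GV replicate 2. Over the 41 genes and the libraries left out, 544 of 574 log2 fold changes kept direction and side of the threshold, as did 252 of 272 in the other alternatives with TMM or size factors. The cause of the changes was not tested.

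Neither labels nor methods say that a replicate number marks a collection. Of 13 pairs with the same number, 3 had deviations correlated by over 0.1. All correlations were positive, up to 0.32, except that between GV replicate 1 and MII replicate 1 (-0.10). The numbers are those of the transcript files, and 7 of 15 column names in the gene table disagreed with those labels. Of 14 libraries, 9 correlated best with their own number, a hint of pairing from the data that rests on these numbers. The main fit left this pairing out, and the replicate block took it in. With the replicate block, higher and lower DEGs among the lipid genes in MIX were 1 and 7, beside 574 and 2210 of 13230 genes. An isoform call was made for 13 lipid genes, beside 2492 of 5392 genes. Between MII and ‘damaged’ oocytes the block raised the genes with an unadjusted p under 0.05 from 194 to 353, and the lipid genes among them from 0 to 1.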
